A study of Mus with 8 samples.

Results

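The 10 genes described here encode enzymes and a chaperone that shape and crosslink collagen: the lysyl oxidases Lox, Loxl1, Loxl2, Loxl3 and Loxl4, the lysyl hydroxylases Plod1, Plod2 and Plod3, the prolyl 4-hydroxylase subunit P4ha1, and the collagen chaperone Serpinh1. They were taken by name, and a probe counted as theirs when its transcript accession, without the version, was a RefSeq transcript of the gene. All 10 were measured, through 16 probes of the 56605 on the array, and they stand among 31281 genes and unnamed transcripts that were tested.

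RNA came from whole subcutaneous tumours grown from MC38, a mouse colon cancer line, and was measured on 1-colour Agilent arrays with Cy3. The Ext1S100a4Cre host (4 tumours) had floxed alleles of Ext1 on both chromosomes and a Cre recombinase driven by S100a4, which fibroblasts and a number of immune cells express. The WT host (4 tumours) was wild type and is labelled B6. Tumours of both hosts were removed 25 to 30 days after transplantation, and no further treatment, sex or age is given in the labels. The transplanted MC38 cells were the same in both hosts and were not a target of the Cre, so that any deletion of Ext1, which encodes a heparan sulfate polymerase, concerns host cells alone. Ext1 mRNA of the whole tumour, in log2 units relative to the 75th percentile of the array, averaged -0.46 ± 0.15 in the Ext1S100a4Cre host and -0.18 ± 0.33 in the WT host (SD, n = 4 each). The 2 ranges overlapped. Whether its probe lies in the deleted part is not given in the sources used here, so it does not check the genotype.

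Collagen chains are hydroxylated on proline and lysine inside the endoplasmic reticulum before they fold into a triple helix. Prolyl hydroxylation makes the helix stable, while lysyl hydroxylation prepares sites for sugars and for crosslinks. Serpinh1, also called HSP47, binds the folded helix and accompanies it on its way out. Outside the cell, lysyl oxidases, which are copper-dependent amine oxidases, convert lysine and hydroxylysine of collagen and elastin to aldehydes that form the covalent crosslinks between molecules. Crosslinked collagen stiffens a tumour's matrix, and Lox, Plod2 and P4ha1 are known targets of the hypoxia-inducible factors.

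Levels are log2 of the processed intensity minus the 75th percentile of the same array, so that 0 stands for the brightness of that percentile and 1 unit is a doubling. Levels of different probes are not set against each other. In the Ext1S100a4Cre host, tumours 1 and 4 had the dimmest arrays, with a 75th percentile of 854.8 and 846.9, while the remaining arrays reached 1017 to 1265. Their share of probes well above background was 65.7% and 66.0%, and 68.8% to 71.1% elsewhere. Of 4 Y-linked genes, 0 were well above background in these tumours and 4 in each of the other 6. Their mean level, relative to the mean of the 8 tumours, was -3.43 and -3.29 in tumours 1 and 4, against 0.42 to 2.44 in the others. As the labels give no sex, a difference in sex cannot be told apart from other differences of tumours 1 and 4. Markers of epithelial and tumour cells were well above background in 7 or 8 of 8 cases in every tumour, and fibroblast markers in 15 or 16 of 16.

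No member passed the test between hosts, and none of the 31281 genes did after adjustment (limma, Benjamini-Hochberg, threshold 0.05). An unadjusted p under 0.05 was reached by 0 of the 10 members, against 6.55% of all genes tested (2050, with 2.16% lower and 4.39% higher in the Ext1S100a4Cre host). The groups overlapped for every member, whereas 4.54% of all genes had no overlap. The mean was lower in the Ext1S100a4Cre host for all 10 members, beside 41.9% of all genes. The median difference of the members was -0.42 log2 units and that of all genes 0.050. Without tumour 1 of the Ext1S100a4Cre host the members' median difference was -0.15, with 9 members lower in mean, and without its tumours 1 and 4 it was -0.13, with 8 lower. The median of all genes was 0.030 and 0.00038 in these 2 settings. The 41.9% holds for all 8 tumours, and the share of all genes with a lower mean was not measured in the smaller sets.

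**Figure D1:**
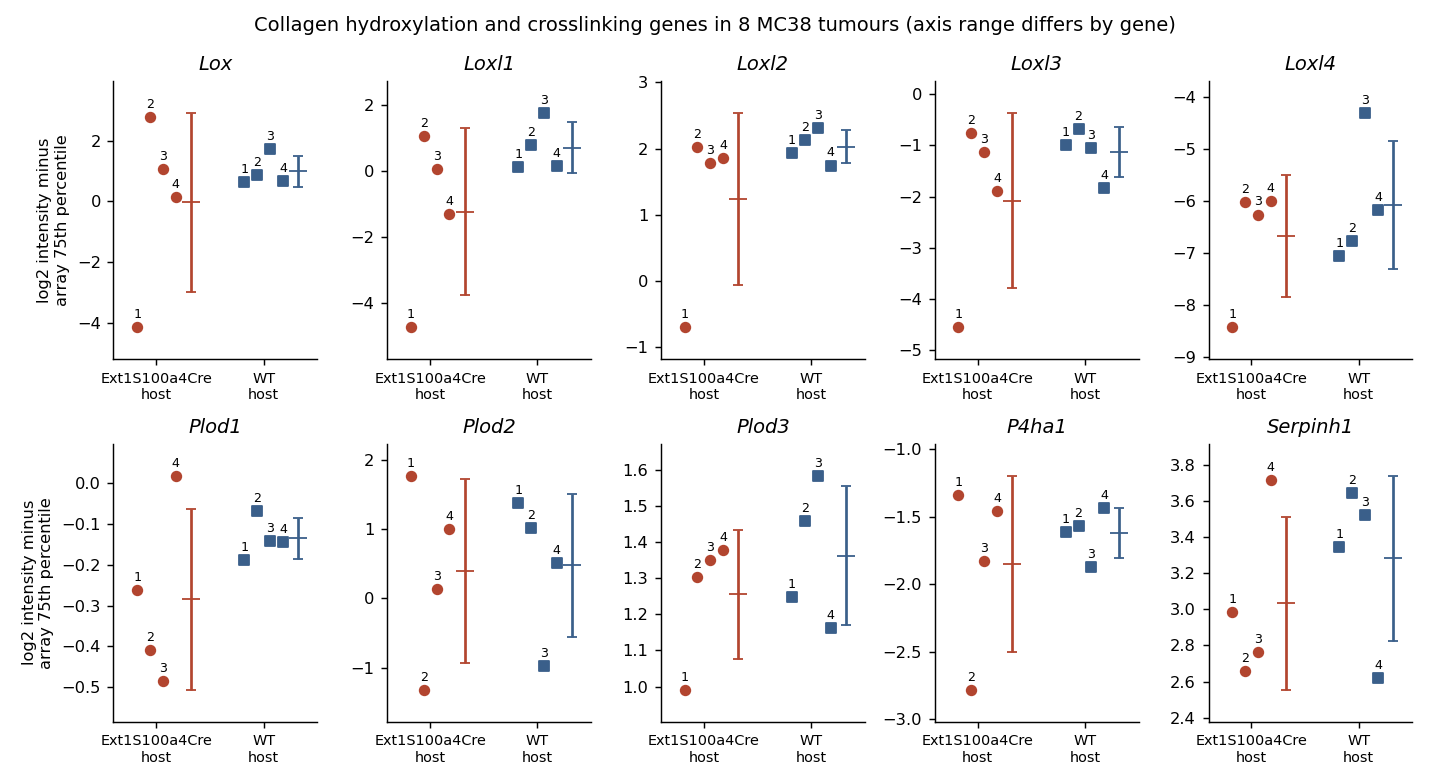
Level of each of the 10 genes in each tumour, as log2 intensity minus the array's 75th percentile, with the tumour's number beside its point. Circles are Ext1S100a4Cre host tumours, squares WT host tumours, and the bars beside them the mean ± SD of 4 tumours. Tumour 1 of the Ext1S100a4Cre host is the lowest of 8 for Lox, Loxl1, Loxl2, Loxl3 and Plod3 and the highest for Plod2 and P4ha1. Loxl4 was not well above background in 4 of the 8, numbers 1 and 3 of the Ext1S100a4Cre host and numbers 1 and 2 of the WT host.

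Lox and Loxl1 were the members with the widest spread between tumours, and Lox, Loxl1, Loxl2 and Loxl3 were lowest in tumour 1 of the Ext1S100a4Cre host. Lox, the founding member, which crosslinks fibrillar collagen and elastin, measured -4.14, 2.79, 1.07 and 0.15 in tumours 1 to 4 of the Ext1S100a4Cre host, against 0.64, 0.88, 1.73 and 0.69 in the WT host. The Ext1S100a4Cre host thus held the lowest and the highest of the 8 tumours, 122-fold apart, with the WT host tumours in between. The difference was -1.02 (SE 1.29, 95% interval -3.99 to 1.95, limma adjusted p = 0.835), and without tumour 1 it was 0.35. For Lox, reassigning the tumours in all 70 ways (exact permutation test, two-sided, with 0.0286 as the smallest p it can give) gave p = 0.686. The direction of the Lox difference therefore rested on 1 tumour.

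Loxl1, which in mice is needed to maintain elastic fibres, had the largest difference in mean of the 10 members. It measured -4.73, 1.05, 0.056 and -1.32 in the Ext1S100a4Cre host, against 0.098, 0.78, 1.74 and 0.13 in the WT host. Tumours 1, 3 and 4 of the Ext1S100a4Cre host were below all 4 WT host tumours, number 3 only just, and its tumour 2 was above 3 of them. The mean in the Ext1S100a4Cre host was 0.263 of that in the WT host, a difference of -1.93 (SE 1.14, 95% interval -4.55 to 0.70, limma adjusted p = 0.747, exact permutation p = 0.2). Without tumour 1 it was -0.76, and without tumours 1 and 4, a choice made after seeing the data, -0.13.

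Loxl2 crosslinks collagen IV and fibrillar collagens and is often high in invasive tumours. It measured -0.70, 2.02, 1.78 and 1.86 in the Ext1S100a4Cre host, against 1.94, 2.13, 2.31 and 1.74 in the WT host. Tumour 1 of the Ext1S100a4Cre host stood alone, and the other 7 tumours spanned 0.57 log2 units. The difference was -0.79 (SE 0.58, 95% interval -2.11 to 0.54, limma adjusted p = 0.753), and -0.14 without tumour 1 of the Ext1S100a4Cre host.

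Loxl3, which in mice is needed for collagen of the palate and spine, measured -4.55, -0.75, -1.12 and -1.90 in the Ext1S100a4Cre host, against -1.0, -0.67, -1.05 and -1.82 in the WT host. Tumours 2 to 4 of the Ext1S100a4Cre host thus spanned almost the same range as the WT host. The difference was -0.95 (SE 0.77, limma adjusted p = 0.771), and -0.12 without tumour 1. Loxl4, another lysyl oxidase, was dim. Its brightest probe was well above background in 2 tumours of each host, numbers 2 and 4 of the Ext1S100a4Cre host and numbers 3 and 4 of the WT host. The measured levels were -8.43, -6.02, -6.26 and -6.00 in the Ext1S100a4Cre host, against -7.07, -6.77, -4.31 and -6.19 in the WT host. The difference of -0.59 (SE 0.74, limma adjusted p = 0.833) was -0.010 without tumour 1 of the Ext1S100a4Cre host and -0.0031 without tumour 3 of the WT host.

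Tumour 1 of the Ext1S100a4Cre host was below the lowest of the other 7 tumours by 4.29 log2 units for Lox, 3.41 for Loxl1, 2.44 for Loxl2 and 2.66 for Loxl3. For Lox that is a 19.5-fold gap, and for Loxl1 a 10.6-fold gap. Loxl4 was not well above background in that tumour or in the next lowest one, so these have no order. The median difference of the 5 lysyl oxidase genes was -0.95 with all tumours, -0.12 without tumour 1 and -0.058 without tumours 1 and 4. The last value is that of Loxl4, which was well above background in only 2 tumours of each host. Without tumours 1 and 4 the differences of Lox, Loxl3, Loxl1 and Loxl2 were 0.94, 0.20, -0.13 and -0.13.

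The lysyl hydroxylases had small differences in mean. Plod1, which hydroxylates lysines of the collagen helix, measured -0.26, -0.41, -0.49 and 0.018 in the Ext1S100a4Cre host, against -0.19, -0.068, -0.14 and -0.14 in the WT host. The WT host tumours lay close together, and 3 Ext1S100a4Cre host tumours were below them and 1 above. The difference was -0.15 (SE 0.14, limma adjusted p = 0.788), and its 95% interval ran from 0.722 to 1.13 of the WT host level. Plod3, which also adds sugars to hydroxylysine, measured 0.99, 1.30, 1.35 and 1.38 in the Ext1S100a4Cre host, against 1.25, 1.46, 1.58 and 1.16 in the WT host. Its difference was -0.11 (SE 0.15, limma adjusted p = 0.850), with an interval from 0.730 to 1.18 of the WT host level. Plod1 and Plod3 were the steadiest members: their SD over 8 tumours was larger than that of 13.1% and 16.7% of all genes tested.

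Plod2, which hydroxylates lysines in the telopeptides of collagen and so sets the type of crosslink, had a wide spread in both hosts. It measured 1.77, -1.32, 0.13 and 1.00 in the Ext1S100a4Cre host, against 1.37, 1.01, -0.98 and 0.51 in the WT host. The highest and the lowest tumour were both of the Ext1S100a4Cre host and 8.49-fold apart. The difference was -0.083 (SE 0.73, 95% interval -1.76 to 1.60, limma adjusted p = 0.981), and -1.07 without tumours 1 and 4 of the Ext1S100a4Cre host.

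P4ha1, a catalytic subunit of prolyl 4-hydroxylase, measured -1.34, -2.78, -1.82 and -1.46 in the Ext1S100a4Cre host, against -1.61, -1.57, -1.87 and -1.44 in the WT host. Tumour 2 of the Ext1S100a4Cre host stood below the others, and the remaining 7 lay between -1.87 and -1.34. The difference was -0.23 (SE 0.31, limma adjusted p = 0.846), with 0.081 without tumour 2 of the Ext1S100a4Cre host and -0.68 without its tumours 1 and 4. Serpinh1 measured 2.99, 2.66, 2.77 and 3.72 in the Ext1S100a4Cre host, against 3.34, 3.64, 3.52 and 2.62 in the WT host. Here 3 of 4 Ext1S100a4Cre host tumours were below 3 of 4 WT host tumours, and tumour 4 of each host ran the other way. The difference was -0.25 (SE 0.30, 95% interval -0.94 to 0.44, limma adjusted p = 0.828), and -0.57 without tumours 1 and 4 of the Ext1S100a4Cre host.

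**Figure D2:**
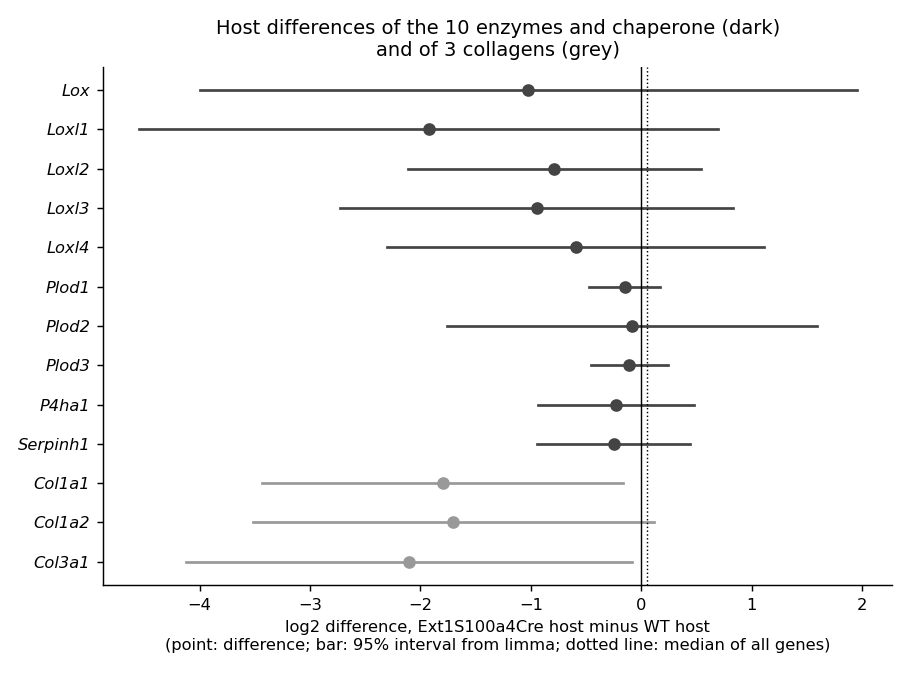
Difference in level between hosts (log2, Ext1S100a4Cre host minus WT host) for the 10 genes in dark and 3 collagens in grey, as limma's estimate with its 95% interval. The solid line marks 0 and the dotted line the median of all genes tested, 0.050. All 10 dark intervals include 0, and those of Plod1 and Plod3 are the narrowest.

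The 8 arrays lay in the 2 rows of 1 slide, each with 2 tumours per host. Within slide row 1, which held tumours 1 and 2 of each host, the members' median difference was -0.82, and within row 2 it was -0.083. The difference of Loxl1 was -2.28 within row 1 and -1.57 within row 2, and that of Lox was -1.44 and -0.60. Plod2, P4ha1 and Serpinh1 differed in sign between rows, with 0.80, 0.013 and 0.17 in row 2 and -0.96, -0.47 and -0.67 in row 1.

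Lox, Loxl2, P4ha1 and Plod3 had a further probe, and Loxl4 had 2. The 2 probes of Lox followed each other over the 8 tumours with r = 0.997, those of Loxl2 with r = 0.978 and those of P4ha1 with r = 0.953. The 2 probes of Plod3 followed each other with r = 0.344 only. For Loxl4, 1 further probe followed the brightest with r = 0.872 and the other stayed near background on all 8 arrays.

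Most of the collagens on which these enzymes act also had a lower mean in the Ext1S100a4Cre host, and no substrate passed the adjusted threshold. Of 11 substrates (fibrillar collagens, collagen IV and elastin), 10 had a lower mean in the Ext1S100a4Cre host, beside 41.9% of all genes. An unadjusted p under 0.05 (limma) with a lower mean was reached by 3 of the 11, beside 2.16% of all genes. The median difference of the 11 substrates was -1.58, with -0.88 without tumour 1 of the Ext1S100a4Cre host and -0.58 without its tumours 1 and 4. Col1a1, a chain of collagen I, measured 1.55, 4.68, 4.03 and 3.86 in the Ext1S100a4Cre host, against 4.51, 5.13, 6.61 and 5.07 in the WT host. Tumour 2 of the Ext1S100a4Cre host overlapped with tumour 1 of the WT host, and the difference was -1.80 (SE 0.71, limma adjusted p = 0.747). Col3a1 differed by -2.11 (SE 0.88) and Col2a1 by -2.28 (SE 0.89), both with a limma adjusted p of 0.747. Since the tumours were whole tissue, fewer collagen-producing cells and less mRNA per cell cannot be told apart.

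Subtracting the Col1a1 level of the same tumour turned 9 of 10 members higher in the Ext1S100a4Cre host, but 99.5% of all genes did so too.

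The other enzymes of procollagen modification in the endoplasmic reticulum were spread over both directions. Of 14 measured, 5 had a lower and 9 a higher mean in the Ext1S100a4Cre host, beside 41.9% and 58.1% of all genes. Their median difference was 0.084. Tmem38b, a potassium channel of the endoplasmic reticulum that is mutated in brittle bone disease, measured -2.51, -2.26, -2.47 and -2.36 in the Ext1S100a4Cre host, against -2.62, -2.55, -2.84 and -3.04 in the WT host. It had no overlap, with a difference of 0.37 (SE 0.15, limma unadjusted p = 0.037, adjusted p = 0.747). Pdia3, a protein disulfide isomerase, had no overlap in the opposite direction, with a difference of -0.27 (SE 0.13, limma adjusted p = 0.747). P4ha3 had the largest difference in size of the 14, at -0.95 (SE 0.47, limma adjusted p = 0.747), and its groups overlapped. Its probe was dim, with -7.21 in tumour 1 of the Ext1S100a4Cre host, where it did not rise clearly over background. P3h1, a prolyl 3-hydroxylase, differed by 0.29 (SE 0.18), and Fkbp14, a peptidyl-prolyl isomerase that acts on collagen, by 0.38 (SE 0.21).

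Of 12 genes of procollagen export and trimming, 8 had a lower mean in the Ext1S100a4Cre host, beside 41.9% of all genes. An unadjusted p under 0.05 (limma) was reached by 0 of the 12. Their median difference was -0.33, with -0.20 without tumour 1 of the Ext1S100a4Cre host and -0.082 without its tumours 1 and 4. Pcolce, an enhancer of the enzyme that removes the C-propeptide, measured 0.21, 3.65, 3.06 and 2.59 in the Ext1S100a4Cre host, against 2.95, 3.56, 4.70 and 2.83 in the WT host. Its lowest tumour was again tumour 1 of the Ext1S100a4Cre host. Of 10 matrix partners of the lysyl oxidases, 9 had a lower mean, with a median difference of -1.31 that was -0.21 without that tumour and 0.10 without tumours 1 and 4 of the Ext1S100a4Cre host. Fn1, which encodes fibronectin, a binding partner of Lox, differed by -0.82 (SE 0.58), and Postn, which encodes periostin, by -1.64 (SE 0.99). Postn, Lum and Dcn are also on the list of fibroblast markers. All 4 crosslinkers of other kinds had a lower mean, but their median difference of -0.78 was -0.21 without tumour 1 of the Ext1S100a4Cre host and 0.16 without its tumours 1 and 4. Pxdn, the peroxidase that forms sulfilimine bonds in collagen IV, had the smallest p, with a difference of -1.0 (SE 0.39, limma unadjusted p = 0.033, adjusted p = 0.747).

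**Figure D3:**
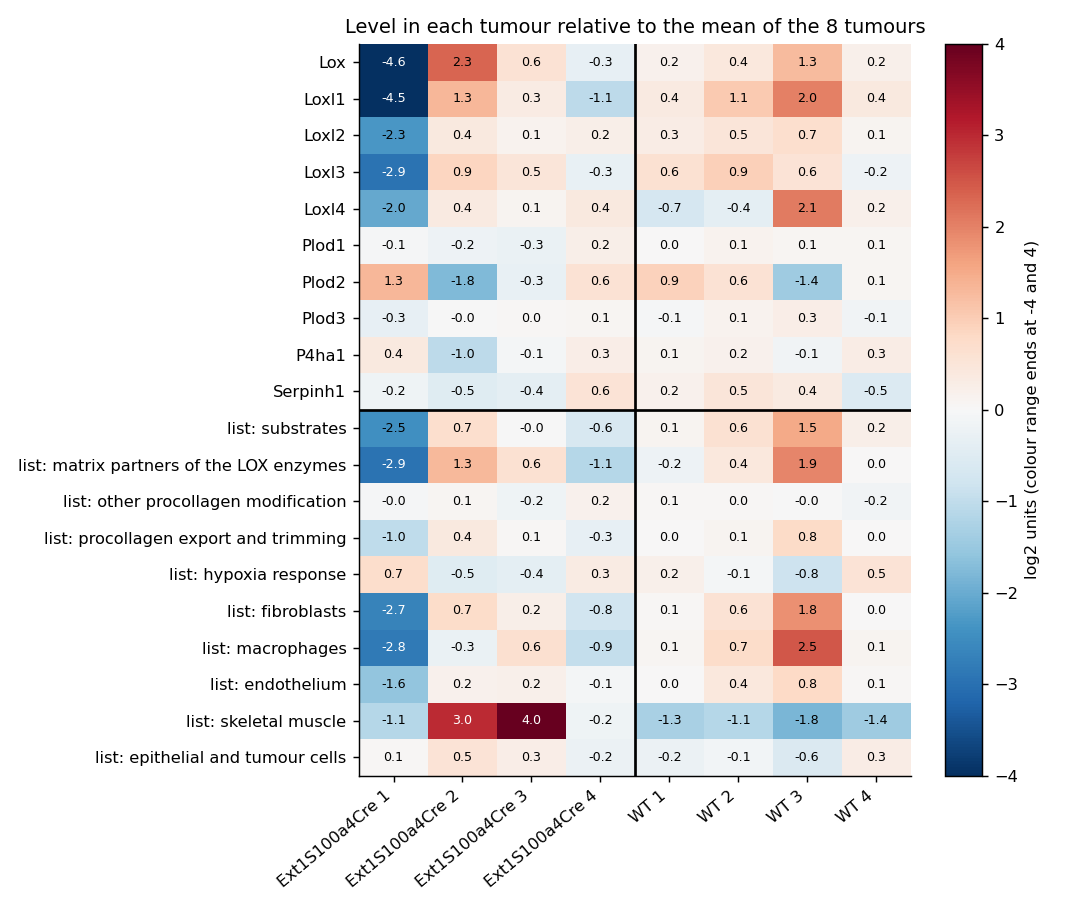
Level in each tumour relative to the mean of the 8 tumours, in log2 units, for the 10 genes (top) and for the mean of each gene list (bottom). Columns 1 to 4 are Ext1S100a4Cre host tumours and the rest WT host tumours. The fibroblast list reads -2.7 in tumour 1 of the Ext1S100a4Cre host and 1.8 in tumour 3 of the WT host, and the rows of Lox, Loxl1, Loxl2 and Loxl3 are lowest in the leftmost column.

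Marker levels of several cell types also differed widely between tumours. The mean fibroblast level, relative to the mean of the 8 tumours, was -2.66, 0.74, 0.23 and -0.77 in the Ext1S100a4Cre host, against 0.050, 0.57, 1.83 and 0.024 in the WT host. Of 16 fibroblast markers, 15 had a lower mean in the Ext1S100a4Cre host, beside 41.9% of all genes. Differences of single fibroblast markers ran from -3.30 to 0.24, so they did not all move alike. Macrophage markers, all 10 with a lower mean, stood at -2.84 in tumour 1 of the Ext1S100a4Cre host and between -0.94 and 0.64 in its other tumours, against 0.063 to 2.48 in the WT host. Endothelial markers stood at -1.56 in tumour 1 of the Ext1S100a4Cre host and between -0.093 and 0.21 in its other tumours, against 0.0077 to 0.79 in the WT host. Skeletal muscle markers ran higher in the Ext1S100a4Cre host, at -1.14, 2.99, 4.01 and -0.17, against -1.84 to -1.14 in the WT host. The part of these cell types in the members' values was not tested.

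Correlation with the fibroblast level reached an unadjusted p under 0.05 for 7 of the 10 members and for 30.2% of all genes (exact permutation test on Pearson's r, genes of the level left out). Over the 8 tumours Loxl1 followed the fibroblast level most closely of the 10 members. Its Pearson r was 0.981 (exact permutation p = 0.00015, adjusted over the 10 members 0.0015) and its Spearman rho 0.905 (exact permutation p = 0.0046, adjusted p = 0.023). Tumour 1 of the Ext1S100a4Cre host and tumour 3 of the WT host were farthest from the median of the level, and without them r was 0.987 (exact permutation p = 0.0083, adjusted p = 0.083). After subtracting each host mean it was 0.974. A slide row holds 4 tumours, too few for a correlation of its own.

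The other lysyl oxidases followed the fibroblast level with r = 0.910 for Lox, 0.897 for Loxl2, 0.892 for Loxl3 and 0.846 for Loxl4, all with an exact permutation p adjusted over the 10 members between 0.011 and 0.034. Plod3 had r = 0.83 (adjusted exact permutation p = 0.030) and Plod2 had r = -0.752 (adjusted exact permutation p = 0.034). The value of Plod3 is that of its brighter probe, which its other probe followed with r = 0.344 only. Spearman's rho was 0.929 for Lox, 0.857 for Loxl2, 0.786 for Loxl3, 0.476 for Loxl4, 0.667 for Plod3 and -0.714 for Plod2, with adjusted exact permutation p of 0.022, 0.027, 0.056, 0.304, 0.119 and 0.096. Without the 2 farthest tumours r was 0.776 for Lox, 0.539 for Loxl2, 0.849 for Loxl3, -0.22 for Loxl4, 0.078 for Plod3 and -0.56 for Plod2, and 0 of the 10 members passed the adjusted threshold over the remaining 6 tumours. The relations of Loxl4 and Plod3 thus rested on the 2 farthest tumours, and for Loxl4 4 of the 8 values were not well above background. P4ha1 passed by rank only (rho = -0.88, adjusted exact permutation p = 0.024, and r = -0.52, adjusted p = 0.244). Serpinh1 (r = 0.12, exact permutation p = 0.801) and Plod1 (r = -0.026, exact permutation p = 0.954) passed by neither.

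With the Col1a1 level in place of the fibroblast level, 6 of the 10 members had an unadjusted exact permutation p under 0.05, as did 26.2% of all genes, and 2 passed after adjustment. They were Loxl1 (r = 0.941, rho = 0.929) and Loxl2 (r = 0.883, rho = 0.738), with adjusted exact permutation p of 0.0089 and 0.018 for r and of 0.022 and 0.208 for rho. Without the 2 farthest tumours r was 0.716 for Loxl1 and 0.409 for Loxl2, and neither passed.

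**Figure D4:**
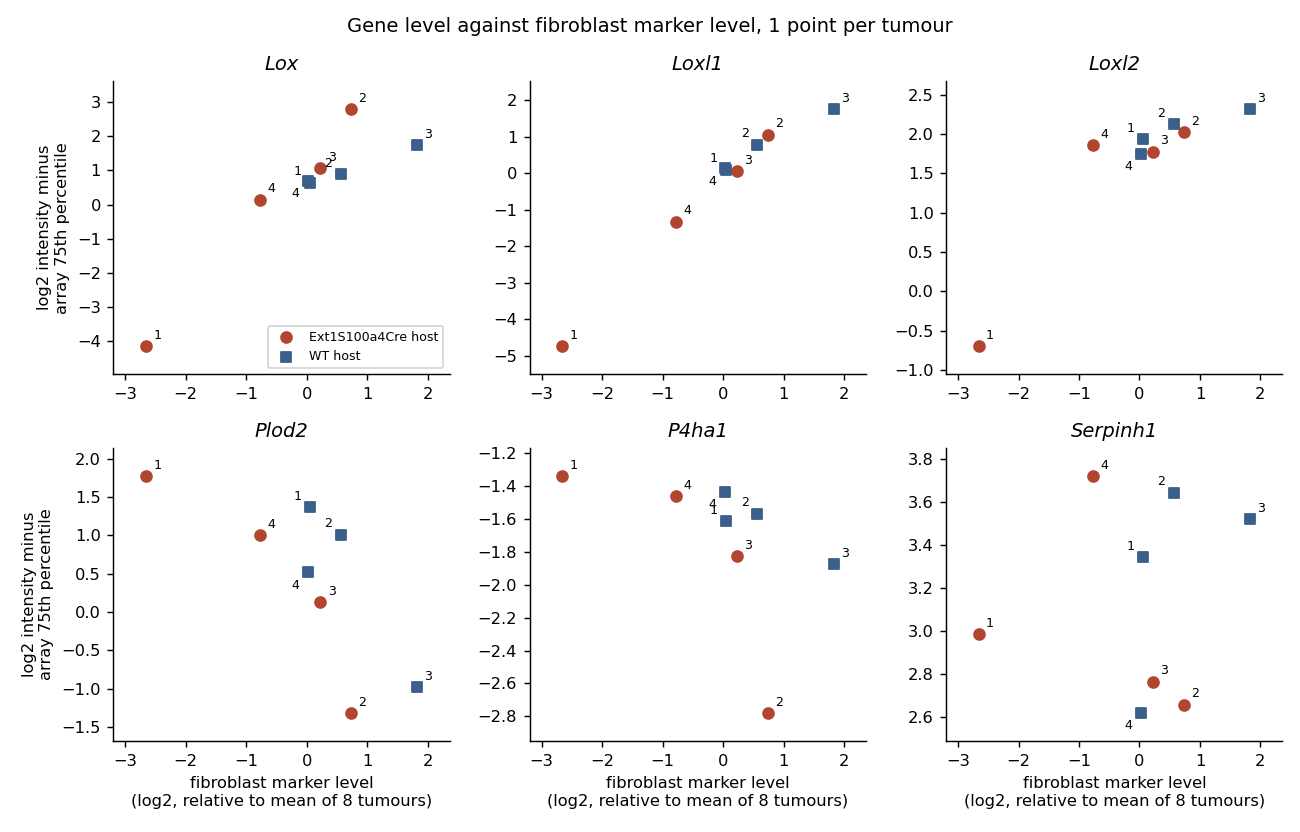
Level of 6 genes (log2 intensity minus the array's 75th percentile) against the mean level of 16 fibroblast markers (log2, relative to the mean of the 8 tumours), 1 point per tumour with its number. Loxl1 rises along the axis with r = 0.981, Plod2 descends with r = -0.752, and Serpinh1 has no trend with r = 0.12.

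The hypoxia response list was compared with the members after the data had been seen, since Plod2 and P4ha1 are hypoxia targets. Lox, also named above as such a target, ran against the list. Between hosts, 14 of 19 genes had a higher mean in the Ext1S100a4Cre host, with a median difference of 0.16, beside 58.1% of all genes. The median was -0.076 without tumour 1 of the Ext1S100a4Cre host and -0.40 without its tumours 1 and 4, so its direction rested on tumour 1. Ddit4, an inhibitor of mTOR signalling, differed by 0.93 (SE 0.35), Car9, a carbonic anhydrase, by -1.0 (SE 0.38) and Angptl4, an inhibitor of lipoprotein lipase, by -0.70 (SE 0.22), each with a limma adjusted p of 0.747. The list's level was 0.71, -0.48, -0.38 and 0.33 in the Ext1S100a4Cre host, against 0.19, -0.086, -0.82 and 0.54 in the WT host.

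Plod2 and P4ha1 ran with that list, and Lox, Loxl1, Loxl3, Loxl4 and Plod3 ran against it, each with an adjusted exact permutation p for r under 0.05. Unadjusted, 8 of the 10 members and 27% of all genes were under 0.05. Plod2 had r = 0.832 and rho = 0.762 (exact permutation p = 0.011 and 0.037, adjusted p = 0.038 and 0.074). P4ha1 had r = 0.693 and rho = 0.952 (exact permutation p = 0.034 and 0.0011, adjusted p = 0.048 and 0.011). Lox had r = -0.743 and rho = -0.905 (exact permutation p = 0.015 and 0.0046, adjusted p = 0.038 and 0.023). For Loxl1, Loxl3, Loxl4 and Plod3 the adjusted exact permutation p for rho was 0.074, 0.119, 0.214 and 0.096. Without the same 2 tumours r was 0.671 for Plod2, 0.779 for P4ha1 and -0.76 for Lox, and 0 of 10 members passed the adjusted threshold. It was -0.575 for Loxl1, -0.763 for Loxl3, -0.093 for Loxl4 and -0.444 for Plod3, the last again from its brighter probe. Loxl4 was well above background in only 2 tumours of each host. P4ha2, the sister subunit of P4ha1, was picked out after its values were seen. It measured 2.89, 0.91, 1.16 and 2.83 in the Ext1S100a4Cre host, against 2.25, 1.89, 1.35 and 1.85 in the WT host, with tumours 2 and 3 of the Ext1S100a4Cre host lowest.

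Over the 8 tumours the lysyl oxidases had a positive r with each other and a negative r with Plod2 and P4ha1. The 10 pairs of lysyl oxidases had r between 0.640 and 0.959, and 5 of these pairs passed an adjusted p of 0.05 over all 45 pairs of members (exact permutation test). The share of passing pairs among other genes was not measured, so these counts are not read as particular to the members. Plod2 and P4ha1 had r = 0.839 and rho = 0.762 (exact permutation p = 0.0023 and 0.037, adjusted p = 0.030 and 0.206), and r = 0.914 without tumour 1 of the Ext1S100a4Cre host and tumour 3 of the WT host. All 10 pairs of a lysyl oxidase with Plod2 or P4ha1 had a negative r, between -0.78 and -0.39. Only 1 of these pairs, Lox with Plod2, passed the adjusted threshold by r, and 0 did by rho. Without those 2 tumours the 10 ran from -0.97 to -0.071. For Lox with Plod2 r was -0.76 (adjusted exact permutation p = 0.049, rho = -0.88 with adjusted p = 0.163), and -0.92 without those 2 tumours. By Pearson's r 8 of the 45 pairs passed, and by Spearman's rho 0. Without the 2 tumours 7 of 10 lysyl oxidase pairs had a positive r, and the 10 ran from -0.49 to 0.81. The 3 negative ones all involved Loxl4.

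**Figure D5:**
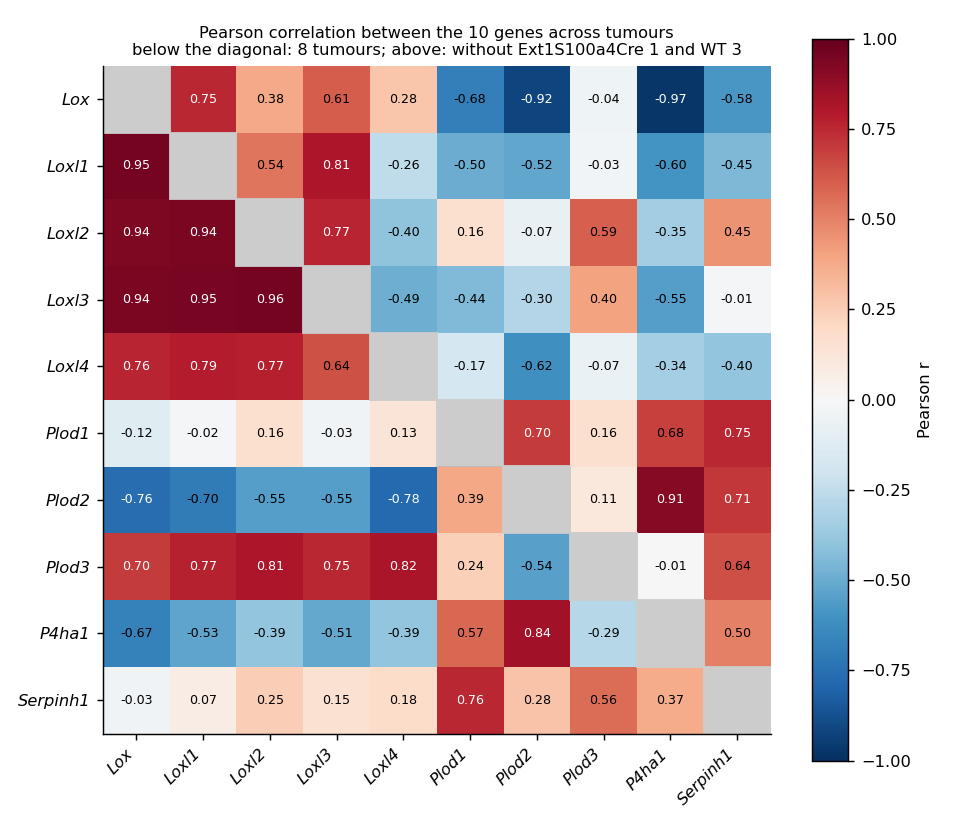
Pearson correlation between the 10 genes, over all 8 tumours below the diagonal and without tumour 1 of the Ext1S100a4Cre host and tumour 3 of the WT host above it. Red is positive and blue negative. The block of lysyl oxidases is red below the diagonal (0.64 to 0.96), and the cells of Plod2 and P4ha1 with them are blue on both sides.

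Outside the set, the genes whose levels ran most like a member's over the 8 tumours were sought among 17198 named genes, by Pearson's r and with no test. For Loxl1 they were Fam20a (r = 0.996), Serpinf1, which encodes the secreted protein PEDF (r = 0.996), and Aebp1, a collagen-binding matrix protein (r = 0.990). Those nearest to Lox were Dkk3, a secreted protein of the Dickkopf family (r = 0.992), Fhl2 (r = 0.991) and Fgd5 (r = 0.989). Loxl2 had 4930426L09Rik, the actin-binding Cald1 and the endothelial transcription factor Erg, with r from 0.987 to 0.996. Loxl3 had Oaf, Samd4 and Gsg1 (0.990 to 0.992), and Loxl4 had Rab37, Flrt2 and 8430431K14Rik (0.971 to 0.990).

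Plod2 had the licensing inhibitor Gmnn, the chromosome maintenance gene Smc6 and the chromatin remodeller Chd4 (0.989 to 0.992). P4ha1 had the recombination gene Rad54l, AU022252 and the primase subunit Prim2 (0.983 to 0.987). Plod3 had Msn, which encodes the membrane linker moesin, the actin crosslinker Flna and the myeloid receptor Cd300lb (0.969 to 0.980). Plod1 had Sfn, Mfsd5 and Fendrr (0.902 to 0.961), and Serpinh1 had Lpar4, Anxa6 and Evx2 (0.949 to 0.968).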

How the data were processed

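Total RNA (0.5 µg) of 8 tumours was amplified and labelled with Cy3, per the labels' protocols. Agilent Feature Extraction made the deposited files, in version 10.7.3.1 per the file headers, whereas version 9.1 is named by the submitters' processing notes. Linear intensities of spots are deposited, and per the file headers the processed intensity had its background subtracted. Other deposited columns hold flags of 0 or 1 for spots above background and outliers. The deposited series matrix held the same intensities (99.47% to 99.50% of values per array within 0.01%).

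Log2 of the processed intensity minus the array's 75th percentile over non-control spots was used. Control spots and outlier spots (53 to 132 per array) were left out, spots of a probe were averaged, and a probe was kept if it stood well above background on 4 or more of 8 arrays (39716, including 15 of the 16 member probes). No spot was saturated. Names came from a RefSeq table (32994 probes named), the headers' build being mm9. Each gene was represented by its brightest kept probe. The host comparison used lmFit and eBayes of limma (version 3.58.1, R 4.3.3, two-sided), with Benjamini-Hochberg adjustment over 31281 genes, and single genes by exact permutation. The procedure was tested on simulated data. Differences are Ext1S100a4Cre host minus WT host. The design text gives 4 mice per host, and p-values measure the spread between these tumours. Precision is limited by how many arrays there are and how far probes rise above background.

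The members, lists and tests were chosen with earlier results of these data known. Members, Ext1, S100a4, Col1a1, Col1a2 and Col3a1 may always be named, with up to 5 genes of each list by smallest unadjusted p and the 3 genes most like each member. S100a4 differed by 0.11 (SE 0.63) and Col1a2 by -1.70 (SE 0.79). Lists of pericytes and smooth muscle, adipocytes, T cells, B cells and red cells had mean level differences of -0.032, 0.24, -1.09, -1.19 and 2.03, and that of epithelial and tumour cells 0.31. Alternatives were normexp on median intensities (offset 50), quantile and median scaling, the series matrix, other probe filters and probe rules, replicate number or slide row as a block, array weights, trended variance and leaving out tumours.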

Additional observations from a re-analysis of the deposited data

Results flagged for a closer look

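In 2 of the 20 groups of 4 tumours examined, 1 tumour stood apart from the other 3 by Dixon's ratio, the gap to the nearest tumour over the group's whole range, which was above its 95% critical value. Chance alone would single out about 1 group in 20. Both were Ext1S100a4Cre host groups, and in both the tumour was number 1. For Loxl2 the ratio was 0.909, with -0.70 in tumour 1 and the nearest tumour at 1.78. For Loxl4 the ratio was 0.891, with -8.43 in tumour 1 and the nearest tumour at -6.26. The probe was not well above background in either, so the size of that gap was not measured.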

How the results depend on the processing

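Over 224 alternative values of the 10 host differences, 13 changed sign and 0 passed the adjusted threshold, with a smallest limma adjusted p of 0.466. The replicate and slide row blocks and the trended variance cannot move a difference in this balanced design, and the probe filters moved none. Their values are among the 224, so the share that changed sign does not measure how stable the directions are. Leaving out 1 tumour moved Lox between -1.96 and 0.35, P4ha1 between -0.40 and 0.081, and Plod2 between -0.57 and 0.49. Without tumours 1 and 4 of the Ext1S100a4Cre host, chosen after seeing the data, Lox was 0.94 and Loxl3 0.20. Array weights gave 0.061 and normexp 0.012 for Loxl4. Within slide row 2, also chosen after seeing the data, P4ha1 was 0.013, Plod2 0.80 and Serpinh1 0.17. The count of members at an unadjusted p under 0.05 was 1 with array weights (Loxl1), with the unscaled series matrix (Plod1) and within slide row 1 (Serpinh1), and 0 to 1 when 1 tumour was left out (Loxl1, without tumour 2 of the Ext1S100a4Cre host). Genes past the adjusted threshold numbered 0, against 1 with array weights, 1 with normexp, 11 without tumours 1 and 4 of the Ext1S100a4Cre host, and 0 to 2 when 1 tumour was left out (2 without tumour 3 of the WT host). Genes at an unadjusted p under 0.05 numbered 2050, against 3297 with array weights and 1465 to 2965 when 1 tumour was left out. The median of all genes, 0.050 in the main setting, was -0.20 with the series matrix and 0.10 with normexp, where 10 and 9 members had a lower mean. Replicate numbers were shared between hosts, but same-numbered tumours deviated together with r = 0.49, -0.16, 0.59 and -0.25, so the numbers were not taken as pairs. The replicate block gave 3241 genes at an unadjusted p under 0.05 and changed no call of a member. Correlations that changed sign without the 2 farthest tumours were Loxl4 with Col1a1 (-0.33) and fibroblast markers (-0.22), Plod3 with Col1a1 (-0.21), and Serpinh1 with Col1a1 (-0.19), fibroblast markers (-0.44) and the hypoxia list (0.28). After subtracting host means, Plod1 with Col1a1 was -0.15 and Serpinh1 with fibroblast markers -0.035. The causes were not tested.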
